A study of Mus musculus with 6 samples.

Results

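The genes described here make the lysosome: its hydrolases, the membrane proteins that line it and subunits of the proton pump that acidifies it. They were chosen by name, as the rows of the deposited table whose gene name equals 1 of 50 listed names. The rule uses no measured value, but the list was drawn up with earlier results of these data known. Of the 50 names, 49 were found among the 22162 genes of the table. The remaining name, Tfeb, a transcription factor that activates lysosome genes, is listed there under its older symbol Tcfeb, and its values are given beside the others but are in none of the counts.

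The study compared mouse skin fibroblasts (MSFs) cultured with tamoxifen (TAM), labelled senescent, with MSFs cultured with ethanol (EtOH), labelled non-senescent, in 3 libraries each of poly(A) RNA. The MSFs were isolated from the dorsal skin of a female FASST mouse on the FVB/N background, whose age is not stated. Cells of both groups carry the same alleles, a TAM-activated Cre recombinase (Cre-ERT2) driven by a regulatory sequence of the pro-alpha 2(I) collagen gene and, at the ROSA26 locus, a cassette that expresses the cell cycle inhibitor p27Kip1 with GFP once Cre has removed a stop sequence. TAM was given at 10 µM for 48 h, EtOH is its vehicle, and both cultures were kept at low oxygen; the day of RNA extraction is not stated. No cells that lack the transgene but received TAM are among the 6 libraries, so the action of TAM itself and of p27Kip1 cannot be told apart. The sources describe 1 MSF line and do not state that the 3 libraries of a group come from separate animals, so the p-values measure the spread between these libraries, which may be technical.

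Lysosomes are acidic organelles in which proteins, glycans, lipids and sulfated sugars are degraded by hydrolases that work at low pH. The pH is kept low by the V-ATPase, a proton pump in the lysosomal membrane, and heavily glycosylated proteins such as LAMP1 and LAMP2 shield the membrane from the enzymes. Senescent cells are often recognised by staining for senescence-associated β-galactosidase (SA-βgal), an activity that comes from the lysosomal β-galactosidase encoded by Glb1 and is commonly attributed to an enlarged lysosomal compartment. In assays other than sequencing, the study reports GFP expression, growth arrest and more SA-βgal-positive cells in MSFs treated with TAM. Many lysosome genes hold a short palindrome, the CLEAR element, in their promoters, to which TFEB and its relatives bind.

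The core of that element, CACGTG, was looked for in RefSeq promoters (GRCm38.p6), 300 bases each, from 250 bases before to 50 after the start of transcription. A promoter was matched for 43 of the 49 genes. CACGTG was present in the promoters of 16 of these 43 genes (37.2%), against 8.09% of all 27025 genes with a promoter and 12.0% of the 8377 genes that were both tested here and had one. The longer form TCACGTGA, which contains CACGTG, was present in 7 of the 43 (16.3%), against 1.12% of all genes and 2.33% of those tested. Both motifs are palindromes, so a match on one strand is a match on the other. The holders are Arsa, Atp6v0d1, Atp6v1a, Cln3, Ctsa, Ctsd, Ctsf, Ctsl, Gaa, Gla, Glb1, Lamp1, Lgmn, Mcoln1, Naglu and Sgsh. The stretch around the motif is printed for Glb1, the gene behind SA-βgal, and for the 3 holders with the largest differences between groups, Gla, Ctsd and Arsa, all 5′ to 3′ on the strand of the gene and with CACGTG in capitals.
Glb1, chr9:114401000-114401065, plus strand: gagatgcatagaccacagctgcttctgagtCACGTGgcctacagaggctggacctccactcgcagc
Gla, chrX:134601164-134601229, minus strand: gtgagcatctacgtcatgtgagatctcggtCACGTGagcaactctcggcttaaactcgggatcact
Ctsd, chr7:142387890-142387955, minus strand: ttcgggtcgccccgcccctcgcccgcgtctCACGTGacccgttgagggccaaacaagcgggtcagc
Arsa, chr15:89477425-89477470, minus strand: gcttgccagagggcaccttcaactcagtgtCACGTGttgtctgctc
The motif begins 48 bases before the start of transcription in Glb1, 194 in Gla, 98 in Ctsd and 16 in Arsa. In Gla and Ctsd the flanking letters make up the longer form. Gla holds a further match 227 bases before its start, and Ctsd one at 245. A match is a description of the letters and shows no binding.

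Values are normalized read counts as deposited, with library sums of 14952367 to 17314953. They are not whole reads, and the reads behind a value could not be recovered for every library, so no counting error is given. Differences were tested with limma on log2(value + 1) over the 11877 genes with at least 1 c.p.m. (16.2 normalized counts) in 3 of the 6 libraries, with Benjamini-Hochberg adjustment over all of them. Fold changes below are TAM over EtOH from this fit, on that log2 scale, and understate the change of genes with low values. The fibroblast markers were present: all 8 (Col1a1, Col1a2, Col3a1, Pdgfra, Dcn, Lum, Thy1, Vim) were above 0 in every library, and none was called. Their sum, most of it from the collagens, was 1525425.0 to 1672642.4 in the EtOH and 678769.3 to 1121066.6 in the TAM libraries. The TAM libraries were all below for 5 of the 8 and all above for 1, against 11.4% and 9.19% of all genes. The log2 fold changes of the markers ran from −2.38 (Lum) to 1.36 (Thy1). Cdkn1b, the gene of p27Kip1, was at 1427.4, 3073.7 and 1853.2 normalized counts in EtOH and 1699.0, 1519.8 and 1630.0 in TAM, and it is not known whether reads of the transgene are counted on it. Over all tested genes, the library farthest from its group's median was most often replicate 2, in 54.6% of genes for EtOH and in 54.5% for TAM.

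No lysosome gene was called at an adjusted p under 0.05, in either direction. Of the 49 genes, 47 passed the filter on low values and were tested. The lowest adjusted p among them was 0.185 (Ctsd, limma). Over all genes tested, 29 were called, which is 0.244%. With the replicate number of the libraries as a block, 192 genes were called (1.62%), again with no lysosome gene among them. The lowest adjusted p of a lysosome gene was then 0.109 (Atp6v1h, limma).

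The differences were small and of both signs. The fold change was positive for 26 and negative for 21 of the 47 genes, beside 5487 and 6390 of all 11877 tested. The median of the 47 was 0.04 on the log2 scale, against −0.03 over all genes tested. The middle of the distribution lay between −0.21 and 0.32, against −0.29 and 0.24 over all genes. The values ran from −0.61 (Arsa) to 1.20 (Gla). The difference was under 1.5-fold for 40 of the 47 genes, beside 9385 of all 11877. The 95% confidence interval lay within 2-fold in either direction for 29 of the 47, beside 6647 of all 11877. Most of all genes tested were thus within these bounds too. Without EtOH replicate 2 the median was 0.06, with 30 positive values, and without TAM replicate 2 it was 0.15, with 29. When each library was divided by its sum, the median was 0.16, with 31 positive values, while the median of all genes moved to 0.08.

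At an unadjusted p under 0.05, 4 genes were higher in TAM (Gla, Ctsd, Atp6v1h and Smpd1), where 6.67% of all genes were. On the same criterion 2 genes were lower in TAM (Arsa and Lipa), where 6.7% of all genes were. The 3 TAM libraries were all above the 3 EtOH libraries for 7 genes (Glb1, Gla, Ctsb, Ctsd, Ctsz, Smpd1 and Atp6v1h), against 9.19% of all genes. They were all below for 4 genes (Arsa, Arsb, Lipa and Cd63), against 11.4% of all genes. The groups overlapped for the other 36. Each of these 4 counts is within a few genes of what the same share of 47 genes would give, so they are no results about lysosome genes.

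**Figure D1:**
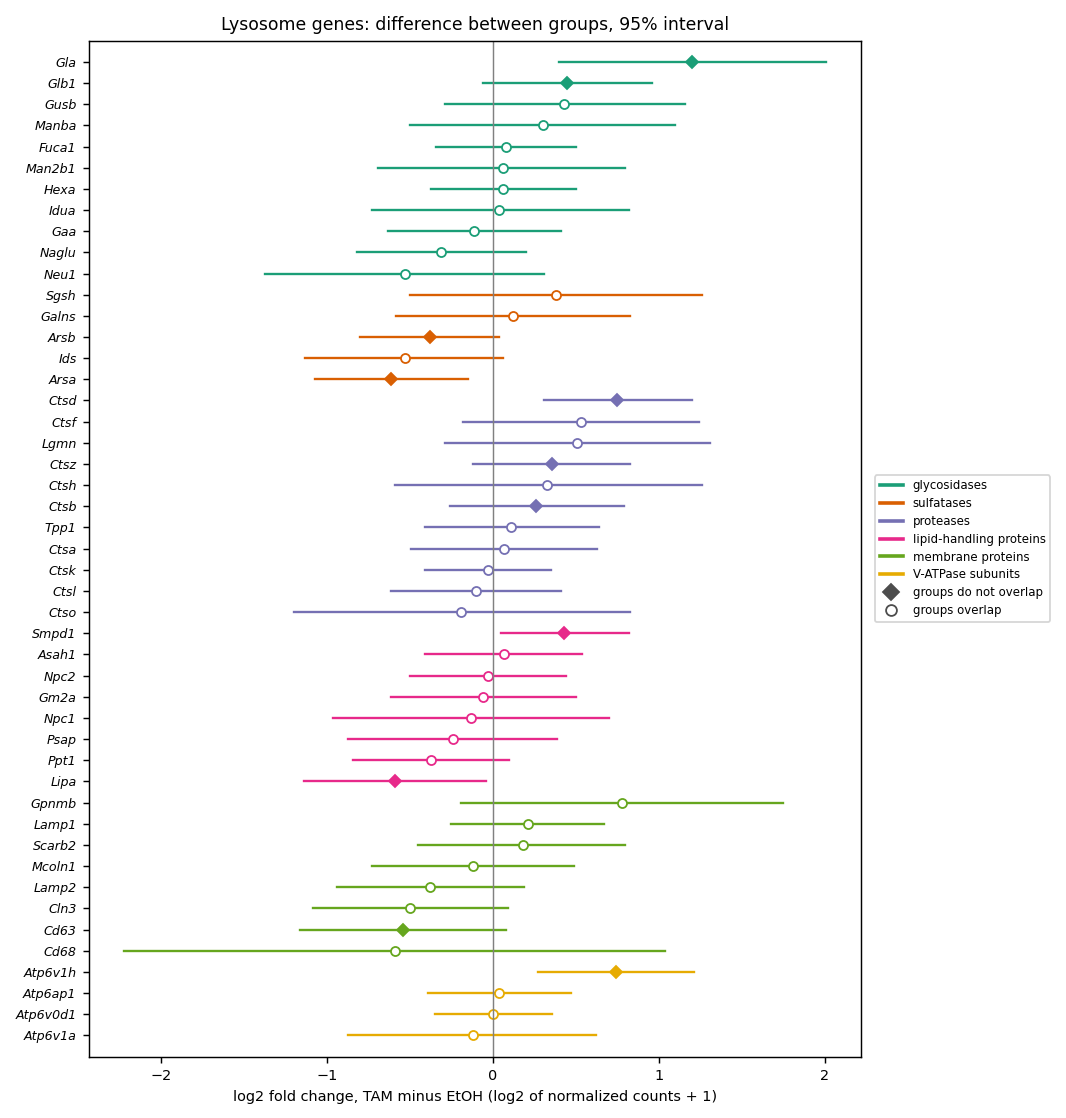
Each row is 1 of the 47 lysosome genes tested, coloured by role. The x axis is the log2 fold change of TAM over EtOH on log2(normalized counts + 1), lines are 95% confidence intervals from limma, and filled diamonds mark the 11 genes whose groups do not overlap. Most intervals cross 0, and the values run from −0.61 (Arsa) to 1.20 (Gla).

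Among the glycosidases, which remove sugars from glycoproteins and glycolipids, the gene behind SA-βgal was higher in the TAM libraries by a margin that did not pass the test. Glb1 (ENSMUSG00000045594) spans chromosome 9 of mm9 from 114310194 to 114383495 on the plus strand, in 18 exon blocks. Of its exon length, 5.6% is shared with another annotated gene of that name on the same strand. Glb1 had 911.2, 636.2 and 887.6 normalized counts in EtOH replicates 1, 2 and 3, and 1289.7, 1095.9 and 928.4 in TAM. The lowest TAM value, that of replicate 3, is just above the highest EtOH value, that of replicate 1. The log2 fold change of Glb1 was 0.45 (standard error 0.21, n = 3 per group, adjusted p = 0.429 from limma), a 1.37-fold difference with a 95% interval of 0.962 to 1.94. Without EtOH replicate 2, the lowest library, it was 0.28, and over all alternatives it lay between 0.28 and 0.57. Between libraries of the same number the log2 difference was 0.50, 0.78 and 0.06.

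Gla, the α-galactosidase that removes galactose from globotriaosylceramide, had the largest fold change of the 47 genes. On mm9 it spans chromosome X from 131122688 to 131135664. Gla had 262.6, 450.2 and 177.0 normalized counts in EtOH and 751.5, 617.5 and 551.8 in TAM. All TAM libraries were above all EtOH libraries, and the EtOH libraries differed among themselves more than the TAM libraries did. The fitted log2 fold change was 1.20 (standard error 0.34, n = 3 per group, unadjusted p = 0.00952, adjusted p = 0.221 from limma), or 2.30-fold with an interval of 1.32 to 4.02. It was 1.55 without EtOH replicate 2 and 0.88 without EtOH replicate 3, and across all alternatives its adjusted p was between 0.105 and 0.551.

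Hexa, the α subunit of β-hexosaminidase, was the glycosidase with the highest level per kb of exon. It had 3079.4, 3279.7 and 3568.3 normalized counts in EtOH and 3178.4, 3101.7 and 4154.7 in TAM. The groups overlapped at a log2 fold change of 0.06 (95% interval −0.37 to 0.50, adjusted p = 0.918 from limma). The other 8 glycosidases lay between −0.53 (Neu1) and 0.43 (Gusb) and their groups overlapped. Neu1, the sialidase that forms a complex with β-galactosidase and the protective protein encoded by Ctsa, had 389.4, 911.1 and 371.1 normalized counts in EtOH and 378.9, 305.0 and 378.0 in TAM, so EtOH replicate 2 was far above the other 5 libraries. Ctsa itself had 5744.2, 6021.3 and 6422.4 in EtOH and 8358.1, 4789.2 and 6452.8 in TAM. The log2 fold changes within that complex were thus 0.45 for Glb1, 0.07 for Ctsa and −0.53 for Neu1.

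The sulfatases, which remove sulfate from glycosaminoglycans and sulfolipids, included the lowest fold change of all. Arsa, the arylsulfatase that degrades sulfatide, lies on chromosome 15 of mm9 from 89302907 to 89307856. It had 1975.8, 2573.8 and 2265.2 normalized counts in EtOH and 1567.1, 1223.2 and 1701.9 in TAM. Every TAM library was below every EtOH library, with the lowest value in TAM replicate 2. The log2 fold change of Arsa was −0.61 (standard error 0.20, n = 3 per group, unadjusted p = 0.0169, adjusted p = 0.262 from limma), and it was −0.47 without TAM replicate 2. Of the exon length of Arsa, 18.8% is overlapped by exons of a gene on the opposite strand, and the counting is not stated to use strand. Such overlap also covers 21.6% of the exon length of Sgsh, 17.4% of Ctsa and 16.2% of Ctsb, and smaller parts of some other listed genes.

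Arsb, which acts on dermatan and chondroitin sulfate, had 854.9, 902.4 and 1010.8 normalized counts in EtOH and 675.9, 626.7 and 830.5 in TAM. Its groups did not overlap either, though EtOH replicate 1 and TAM replicate 3 were close. Arsb had a log2 fold change of −0.38 (95% interval −0.80 to 0.04, adjusted p = 0.411 from limma), and 45.3% of its exon length is overlapped by exons on the opposite strand. Ids, the iduronate sulfatase, was at −0.53 and was lower in TAM in each pair of same-numbered libraries (−0.57, −0.47 and −0.56). With the block its unadjusted p was 0.0168 and its adjusted p 0.192 (limma). Galns and Sgsh had positive values of 0.12 and 0.38, with overlapping groups. The 5 sulfatases summed to 4973.9, 5136.1 and 5642.2 normalized counts in EtOH and 4310.6, 3410.0 and 4636.4 in TAM.

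The proteases had the highest median of the role groups, 0.26 over the 11 of 13 that were tested, with 8 positive values. Under the 3 other scalings that median was 0.28 to 0.39. Ctsd encodes cathepsin D, an aspartic protease and among the main proteases of the lysosome. It lies on chromosome 7 of mm9 from 149557053 to 149573943, and 6.5% of its exon length is shared with a gene on the same strand. Ctsd had 9410.9, 9239.9 and 10257.2 normalized counts in EtOH and 16779.4, 14575.3 and 17530.8 in TAM. The gap between the groups was wider than the spread within either. The log2 fold change of Ctsd was 0.75 (standard error 0.19, n = 3 per group, unadjusted p = 0.00521, adjusted p = 0.185 from limma), or 1.69-fold with an interval of 1.24 to 2.30. Over the alternatives the log2 fold change of Ctsd lay between 0.70 and 0.87, and its adjusted p between 0.146 and 0.492.

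Ctsz, a carboxypeptidase, had 3368.7, 3725.1 and 2942.7 normalized counts in EtOH and 5259.4, 3910.2 and 3761.1 in TAM. TAM replicate 1 stood well above the other libraries, which ran from 2942.7 to 3910.2. The log2 fold change of Ctsz was 0.36 (95% interval −0.12 to 0.83, adjusted p = 0.505 from limma), and 0.20 without TAM replicate 1. Ctsb, cathepsin B, had 22482.6, 26581.7 and 21382.7 normalized counts in EtOH and 26691.8, 27244.5 and 30391.7 in TAM. Its groups nearly touched, at EtOH replicate 2 and TAM replicate 1, with a log2 fold change of 0.26 (95% interval −0.26 to 0.79, adjusted p = 0.657 from limma) that was 0.47 after quantile normalization. Ctsl, cathepsin L, the protease with the highest level per kb, had 12998.9, 13699.6 and 14856.7 normalized counts in EtOH and 15847.2, 11218.9 and 12074.4 in TAM. Its highest and its lowest value were both in TAM, and its log2 fold change was −0.10 (adjusted p = 0.883 from limma), with a sign that turned under another scaling.

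Ctsk, the collagen-degrading cathepsin K, differed little between any of the libraries, with 6339.5, 5858.2 and 6536.7 normalized counts in EtOH and 5949.4, 6069.4 and 6305.2 in TAM. Its interval, −0.41 to 0.35 on the log2 scale, was among the narrower of the 47. Ctsf (0.53), Lgmn (0.51), Ctsh (0.33), Tpp1 (0.11), Ctsa (0.07) and Ctso (−0.19) had overlapping groups. Ctsc and Ctss, cysteine cathepsins best known from immune cells, did not pass the filter. Ctsc was at 0, 1.86 and 0 normalized counts in EtOH and 7.29, 21.77 and 1.12 in TAM. Ctss was between 0.70 and 3.34 in all 6 libraries. The proteases summed to 65386.2, 71556.3 and 67376.7 normalized counts in EtOH and 87496.9, 72680.3 and 83270.1 in TAM, and Ctsb, Ctsd and Ctsl made up most of each sum.

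**Figure D2:**
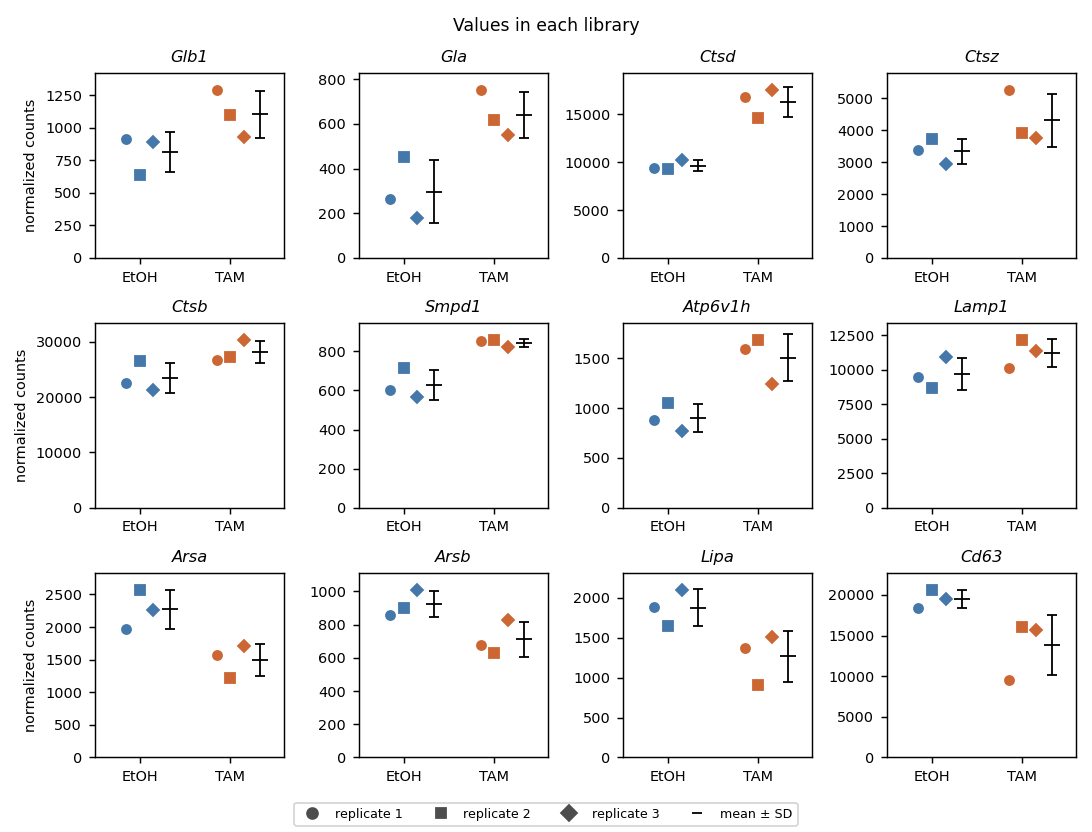
Normalized counts of 12 lysosome genes in each of the 6 libraries, on axes that start at 0. Marker shapes give the replicate number and bars the mean ± SD of 3 libraries. The 7 genes whose TAM libraries are all above the EtOH libraries come first, with Lamp1, whose groups overlap, beside them, and the bottom row holds the 4 genes whose TAM libraries are all below.

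Genes that handle lipids differed in both directions. Smpd1, the acid sphingomyelinase, had 601.4, 712.6 and 566.9 normalized counts in EtOH and 850.3, 858.8 and 821.1 in TAM. The TAM libraries lay close together and above all EtOH libraries. Smpd1 differed by 0.43 on the log2 scale (standard error 0.16, n = 3 per group, unadjusted p = 0.0313, adjusted p = 0.317 from limma), and over the alternatives the unadjusted p of Smpd1 was between 0.0104 and 0.122. On mm9 it spans chromosome 7 from 112702874 to 112706902, in 6 exon blocks.

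Lipa, the acid lipase that frees cholesterol and fatty acids from lipoproteins, had 1878.9, 1641.8 and 2103.1 normalized counts in EtOH and 1377.3, 907.4 and 1512.6 in TAM. All TAM libraries were below all EtOH libraries, with replicate 2 the lowest in each group. Its log2 fold change was −0.59 (standard error 0.23, n = 3 per group, unadjusted p = 0.0380, adjusted p = 0.339 from limma). Without TAM replicate 2 it was −0.37, with an unadjusted p of 0.0775 in limma. Lipa lies on chromosome 19 of mm9 from 34566808 to 34601964.

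Psap, the precursor of the saposins that present lipids to their hydrolases, had 40760.4, 53954.2 and 49828.4 normalized counts in EtOH and 37584.7, 37184.0 and 47618.2 in TAM. The groups overlapped, with a log2 fold change of −0.24 (95% interval −0.87 to 0.39, adjusted p = 0.746 from limma) that was 0.08 after quantile normalization. The other 5 genes lay between −0.37 (Ppt1, a thioesterase) and 0.07 (Asah1, acid ceramidase). Npc1 and Npc2, which pass cholesterol out of the lysosome, were at −0.13 and −0.03. The fold change was negative for 6 of these 8 genes, but for only 3 of them after quantile normalization or without EtOH replicate 2.

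Lamp1, the most used marker of the lysosomal membrane, had 9497.0, 8678.0 and 10946.5 normalized counts in EtOH and 10098.6, 12161.4 and 11361.4 in TAM. EtOH replicate 3 was above TAM replicate 1, and the log2 fold change was 0.21 (95% interval −0.25 to 0.67, adjusted p = 0.689 from limma), or 0.13 without EtOH replicate 2. Lamp2 was at −0.38, so the main glycoproteins of the membrane did not share a sign. Cd63, a tetraspanin of late endosomes and exosomes, had 18424.1, 20657.7 and 19514.5 normalized counts in EtOH and 9540.0, 16104.4 and 15739.2 in TAM. The EtOH libraries were close together, and TAM replicate 1 was far below the other TAM libraries. Cd63 differed by −0.54 on the log2 scale (95% interval −1.16 to 0.08, adjusted p = 0.442 from limma), by −0.29 without TAM replicate 1 and by −0.33 after quantile normalization. Of the transcript of Cd63, 85.9% has a near-identical copy at 1 other place in the genome, so its counts are uncertain. The share with such a copy was 14.7% for Lamp1, 8.4% for Psap and 2.8% for Ctsa.

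Gpnmb, a glycoprotein of lysosomes and melanosomes, had 3119.2, 1350.7 and 2532.6 normalized counts in EtOH and 6129.2, 2574.7 and 3437.7 in TAM. Replicate 2 was the lowest of each group and the groups overlapped, while each TAM library was above the EtOH library of the same number, by 0.97, 0.93 and 0.44 on the log2 scale. The log2 fold change of Gpnmb was 0.78 (standard error 0.41, adjusted p = 0.473 from limma). Gpnmb was at 0.43 without EtOH replicate 2, and likewise without TAM replicate 1. Blocking on the replicate number lowered the standard error to 0.19 (unadjusted p = 0.00772, adjusted p = 0.144). The other membrane proteins, Scarb2 (0.18), Mcoln1 (−0.12), Cln3 (−0.50) and Cd68 (−0.59), had overlapping groups. Cd68 had 52.13, 352.2 and 97.38 normalized counts in EtOH and 49.55, 90.47 and 115.9 in TAM, with EtOH replicate 2 far above all others. Of the 8 membrane proteins 3 had a positive fold change, and 5 did without EtOH replicate 2.

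Of the V-ATPase subunits, Atp6v1h stood out from the other 3. It encodes subunit H of the part of the pump that splits ATP, and lies on chromosome 1 of mm9 from 5073254 to 5152630. Atp6v1h had 883.7, 1049.3 and 767.9 normalized counts in EtOH and 1597.9, 1687.4 and 1239.5 in TAM. Every TAM library was above every EtOH library, and in both groups replicate 2 was the highest and replicate 3 the lowest. Its log2 fold change was 0.74 (standard error 0.20, n = 3 per group, unadjusted p = 0.00716, adjusted p = 0.203 from limma), or 1.67-fold with an interval of 1.21 to 2.32. Blocking on the replicate number gave a standard error of 0.15 and an adjusted p of 0.109.

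Atp6ap1, an accessory subunit and the one with the highest level per kb, had 2980.8, 3306.4 and 3426.5 normalized counts in EtOH and 2919.9, 3951.3 and 3183.5 in TAM. Its log2 fold change was 0.04 (95% interval −0.39 to 0.47, adjusted p = 0.951 from limma). Atp6v0d1 was at 0.00 (95% interval −0.35 to 0.36) and Atp6v1a, the catalytic subunit, at −0.12. Without TAM replicate 2, 3 of the 4 subunits had a negative value. Among 14 further V-ATPase genes that were compared, 11 had a positive fold change, beside 5487 of all 11877 genes tested. The median of the 14 was 0.14, every pair of groups overlapped and none was called. The largest fold change among them was 0.48, for Atp6v0a2. Between libraries of the same number Atp6v0a2 differed by −0.08, 1.25 and 0.28 on the log2 scale. Tfeb had 69.58, 80.14 and 69.96 normalized counts in EtOH and 69.94, 65.34 and 73.45 in TAM. Its log2 fold change was −0.07 (95% interval −0.63 to 0.49, adjusted p = 0.928 from limma), and its level was close to equal in the 6 libraries.

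**Figure D3:**
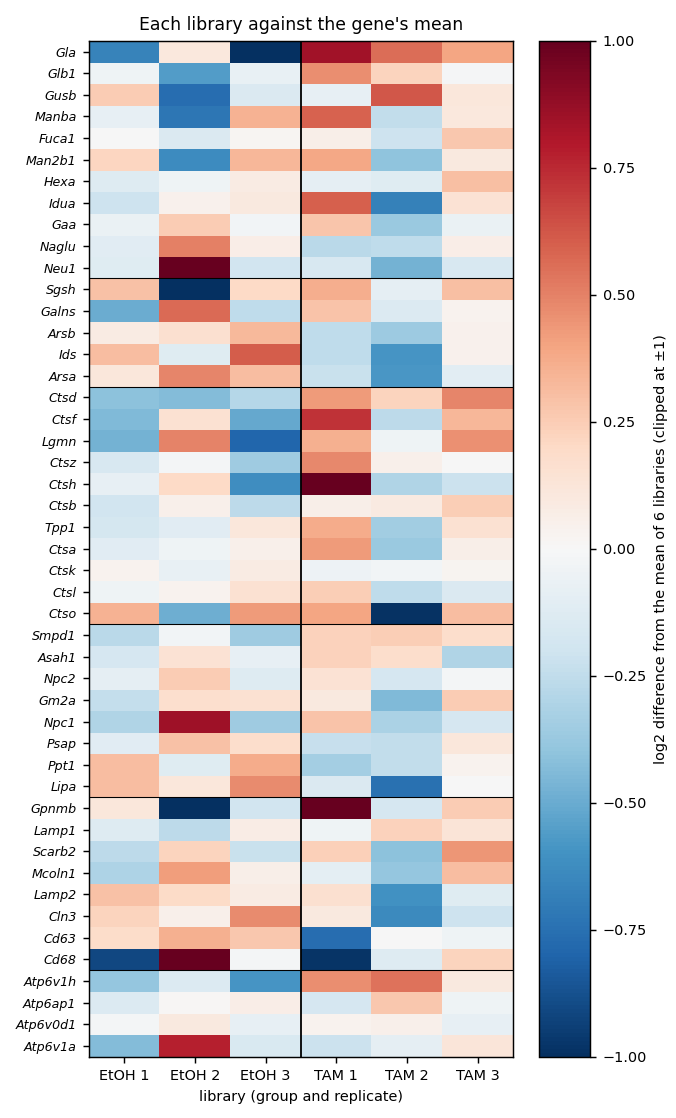
Each cell is the log2 difference of 1 library from the gene's mean over 6 libraries, clipped at ±1, for the 47 lysosome genes tested, grouped by role. Columns are EtOH 1 to 3 and TAM 1 to 3. EtOH 2 and TAM 2 often depart from the other libraries of their group, and in 36 of the 47 rows the groups overlap.

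Libraries departed from their own group to unequal extents. EtOH replicate 2 was the farthest from the group's median for 29 of the 47 genes (61.7%), and was the highest of its group for 24 and the lowest for 15. TAM replicate 2 was the farthest for 20 (42.6%) and the lowest of its group for 30. The 49 genes took 1.15%, 1.27% and 1.28% of the library sum in EtOH and 1.37%, 1.17% and 1.46% in TAM. The share in TAM replicate 2 lay within the range of the EtOH libraries, and that in the other TAM libraries above it. These shares also depend on the library sums, which were 16205796 to 17314953 in EtOH and 14952367 to 16252633 in TAM. As deposited, the 49 genes summed to 193345.8, 220764.2 and 207598.3 normalized counts in EtOH. In TAM the sums were 211473.2, 189718.1 and 218819.7, so on that scale the groups overlapped.

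Levels per kb of exon allow the genes to be compared with one another only roughly. The length used is that of all annotated exons of a gene merged, which can exceed its longest protein-coding transcript. For Lamp2 it is 9552 against 3604 bases, and for Npc1 10725 against 5224, so levels of such genes may be too low. Psap and Cd63 were the highest, with means over 6 libraries of 16302.1 and 16162.3 normalized counts per kb, and their order turned between the groups. Ctsl (6809.8), Ctsb (5444.5), Ctsd (5147.1), Lamp1 (4637.3) and Ctsk (4167.6) followed. Of these, Ctsd was below Lamp1 and Ctsk in EtOH, at 3825.3 per kb, and close to Ctsl in TAM, at 6468.9. Glb1 was at 326.4 per kb. The lowest were Ctsc (0.92) and Ctss (1.11), and the lowest of those tested were Manba (36.1) and Cln3 (41.8). In counts, Psap, Ctsb, Cd63 and Ctsl together made up 48.5% of the sum of the 49 genes.

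**Figure D4:**
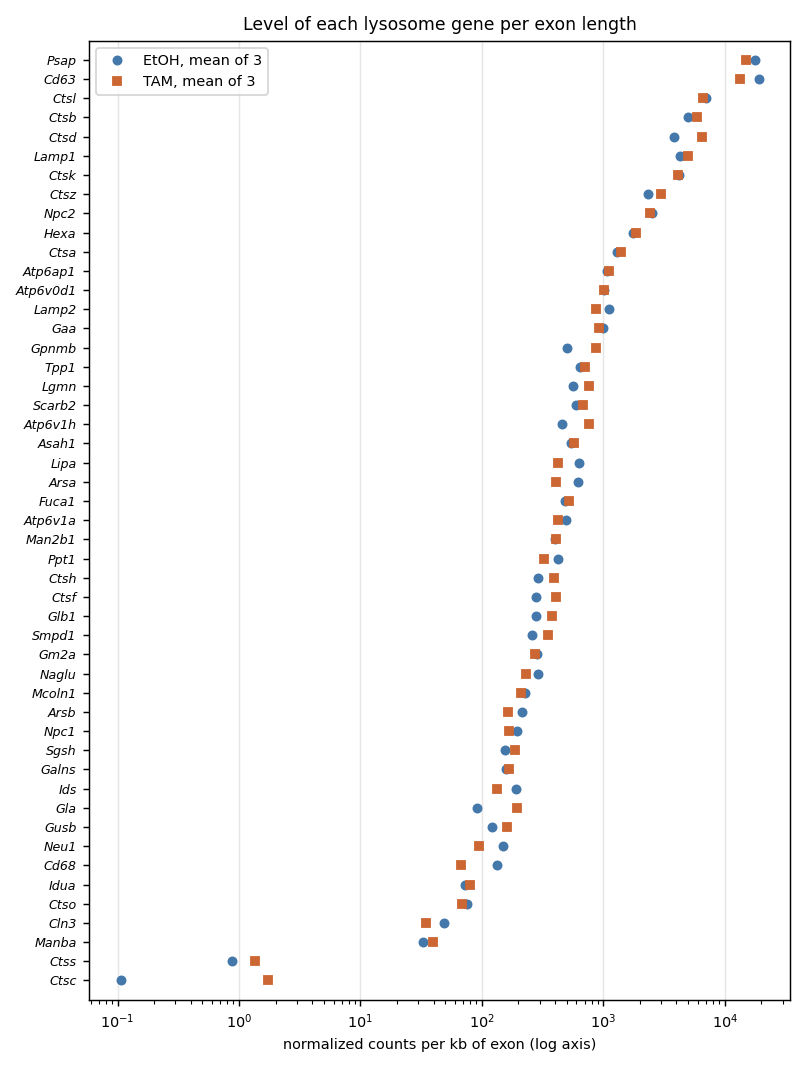
Mean level of each of the 49 lysosome genes in EtOH (circles) and TAM (squares), in normalized counts per kb of exon on a log axis, ordered by the mean of both. The group means span from 0.107 (Ctsc in EtOH) to 18944.8 (Cd63 in EtOH), and for most genes the symbols of the groups lie close together.

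The fold changes of lysosome genes with and without the CACGTG motif are given side by side, with no test. Of the 16 with it, 8 had a positive value after rounding, and the median was 0.04. Atp6v0d1, at 0.00, is not among these 8, but is among the positive values counted over all 47 genes. The TAM libraries were all above for 3 of the 16 and all below for 1. Of the 25 tested genes with a promoter that lacks the motif, 12 had a positive value and the median was −0.03, with 2 above and 3 below. Over all genes these shares were 9.19% above and 11.4% below. The 4 genes whose sequences are printed differ in sign: Gla, Ctsd and Glb1 were higher in TAM, and Arsa was lower.

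A further 88 genes of the lysosome that were not among the listed names (other hydrolases, transporters, sorting factors, V-ATPase subunits and regulators) were compared in the same fit. Of these, 87 were in the table and 83 were tested. None was called, without or with the block, and their median log2 fold change was 0.01, with 42 positive and 41 negative values. The lowest adjusted p was that of Pla2g15, a lysosomal phospholipase, which had 536.4, 549.4 and 510.2 normalized counts in EtOH and 854.8, 1162.9 and 1048.3 in TAM. The groups were far apart, with a log2 fold change of 0.93 (standard error 0.18, n = 3 per group, adjusted p = 0.105, with the block 0.0854, from limma). At the other end Gga2, an adaptor that sorts hydrolases from the Golgi, had 1200.6, 1733.4 and 1304.0 in EtOH and 891.8, 579.8 and 820.1 in TAM. Its groups did not overlap, and its log2 fold change was −0.89 (adjusted p = 0.196 from limma). The TAM libraries were all above for 6 and all below for 9 of the 83 genes, beside 9.19% and 11.4% of all genes, so these counts are near the background.

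Cd68, Ctss and Gpnmb are strongly expressed by macrophages, and Gpnmb by melanocytes, so markers of other skin cells were looked at. Of 11 macrophage markers, 3 (Csf1r, Cd14 and Lyz2) were above 0 in every library and 4 (Adgre1, C1qa, C1qb and Tyrobp) were at 0 in all. The others, Itgam, Ptprc, Mpeg1 and Fcgr1, were at 7.93 normalized counts or less in every library. Only Csf1r, Cd14 and Lyz2 passed the filter on low values and were tested, and none of these 3 was called. All 11 markers summed to 151.0 to 176.3 normalized counts in EtOH and 325.2 to 459.0 in TAM. Their part in the values above was not tested, and in RNA of whole cultures more cells of a type and more RNA per cell cannot be told apart. The 6 melanocyte markers summed to 134.2 to 254.8 in EtOH and 140.7 to 190.1 in TAM, with Dct, Tyrp1 and Sox10 at under 1 normalized count in each library. The 6 keratinocyte markers summed to 42.89 to 62.1 and 54.33 to 73.85, with Krt1 at 0 in all. The 5 endothelial markers summed to 85.85 to 240.6 in EtOH and 15.72 to 35.12 in TAM, most of it Kdr in EtOH. Of these only Kdr was tested, with a log2 fold change of −3.71 (adjusted p = 0.0608 from limma). With the block its adjusted p was 0.0488, so it was called there only. Pecam1 (means of 4.3 in EtOH and 6.93 in TAM) and Cdh5 (1.6 and 1.57) were low and did not fall alike.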

How the data were processed

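Poly(A) RNA of 3 EtOH- and 3 TAM-treated MSF libraries was sequenced. The authors mapped reads to mm9 with TopHat, counted them with htseq-count on RefSeq genes and used edgeR with TMM; versions and strand setting are not given in the sources used here. The signal deposited by the authors is 1 table of normalized counts per gene, with Ensembl identifiers and an unstated normalization. Whole reads could not be recovered for every library, so the edgeR test planned for counts was not run, and no depths or counting errors are given.

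Libraries were grouped by their titles and treatment labels. Values were fitted in R 4.3.3 with limma 3.58.1 (log2(value + 1), intensity trend, two-sided), over 11877 genes that reached 1 c.p.m. in 3 or more libraries, and a Benjamini-Hochberg adjusted p under 0.05 was taken as a call. The study names no block. Same-numbered libraries deviated together from their group means. Pearson's r over genes, which are not independent replicates, was 0.241, 0.287 and 0.422, against −0.31 to 0.0374 for other pairs. The deviations of a gene cancel out within each group, so positive same-numbered values push those of other pairs down. The contrast is therefore no separate evidence of pairing. The replicate number, which comes from the titles, was also used as a block. Other scalings, pseudocounts, filters and the omission of each library were tried.

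The genes, the list of further lysosome genes and the markers were chosen with earlier results of these data known. Values in every library are given for Glb1, Tfeb and Lamp1, for genes at an unadjusted p under 0.05, for genes whose groups do not overlap and, in each role group, for the largest difference and the highest level per kb; of the further genes, at most the 3 highest and 3 lowest are named. Values of Neu1, Ctsa, Ctsk, Cd68, Ids, Ctsc and Ctss were added after they were seen. Positions, exon lengths and overlaps are from the mm9 annotation (22148 genes matched). Near-identical copies of transcripts were searched in the mm9 genome (BLAST 2.17.0, 95% identity, at least 100 bases). Promoters are from RefSeq (GRCm38.p6). Python 3.11.15 with pandas 2.3.3 and matplotlib 3.10.9 was used for tables and plots.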

Additional observations from a re-analysis of the deposited data

How the results depend on the processing

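Under all 14 alternatives no lysosome gene and none of the further lysosome genes was called. The median log2 fold change of the lysosome genes ran from −0.05 to 0.16. Over all genes tested, 20 were called higher and 9 lower. With the replicate block these counts were 119 and 73, with no filter 12 and 5, with at least 10 normalized counts in every library 4 were lower, and with quantile normalization 13 were higher. When 1 library was left out the counts were 0 to 6 higher and 0 to 9 lower; each of the 6 libraries moved the count of higher genes by over 1.5 times, in fits with fewer libraries. The block changed no call among the lysosome genes. Of 252 values for the 18 genes that the rule for values in every library names, 244 kept their sign and 8 turned: Atp6ap1 without EtOH replicate 1 (−0.02) and without TAM replicate 2 (−0.08), Ctsl with library size scaling (0.01), with quantile normalization (0.03) and without TAM replicate 2 (0.00), Hexa without TAM replicate 3 (−0.07), Psap with quantile normalization (0.08) and Tfeb with library size scaling (0.04). The cause was not tested. With 1 library left out, the value ran from −0.08 to 0.13 for Atp6ap1, from −0.25 to 0.00 for Ctsl and from −0.07 to 0.14 for Hexa. Library size scaling moved the median of all genes from −0.03 to 0.08. The edgeR and DESeq2 alternatives planned for read counts were not run. With 3 libraries per group the median standard error of a lysosome gene was 0.24 on the log2 scale, and without read totals for every library the share of counting error in it is unknown.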
